A study of Mus musculus with 16 samples.

Results

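The 10 genes described here encode proteins that build the mitotic spindle and divide the cell after it: Tpx2, Aspm, Nusap1 and Ckap2 of the spindle, Prc1, Racgap1 and Ect2 of the central spindle, and Anln, Cep55 and Iqgap3 of the contractile ring and the midbody. They are 10 of the 49166 genes matched in the files, and were selected on their log2 fold changes in earlier results of these data, in which they were lower in the cultures given dihydrotestosterone with enzalutamide. All 10 passed the filter on low counts, which 16971 genes passed. The study sequenced polyA RNA of cultured neural progenitors from the cortex of E18.5 mouse embryos, 16 cultures that form 4 groups with 4 replicates each. Cells labelled Chd1 knockout with androgen and antagonist (KO DHT+ENZ) received 10 µM enzalutamide (ENZ, an androgen receptor antagonist) and, 30 min later, 10 nM dihydrotestosterone (DHT, an androgen) for 24 h. Knockout cells with androgen alone (KO DHT) had DHT for the same time, and knockout cells in the vehicle group (KO DMSO) had DMSO. The labelled wild-type cells (WT DMSO) also had DMSO. Every culture, WT included, carried a lentivirus with Cas9 and went through puromycin selection. The knockout virus added a guide RNA against Chd1, a chromatin remodeller, and the WT virus had none. The series holds no WT culture with DHT, and none with enzalutamide alone. The embryos were of 2 litters, no label ties a replicate to a litter, and none calls the cultures clonal.

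In mitosis the spindle, an array of microtubules, pulls the chromosomes apart. Antiparallel microtubules left between them form the central spindle, which calls up the small GTPase RhoA at the equator, and RhoA sets off the actin and myosin ring that pinches the cell. The last bridge, with the midbody at its centre, is cut by the ESCRT-III machinery. Cells make most of these proteins in G2 and mitosis, so their RNA is abundant in dividing cells. In cortical progenitors the orientation of the spindle and the completion of cytokinesis bear on how many neurons are made, and mutations of ASPM are a known cause of human primary microcephaly.

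The shallowest library, WT DMSO replicate 1, had 20.2 M (mega) estimated counts, and the remaining 15 had 31.8 to 36.9 M. Levels of genes are given in CPM, estimated counts divided by the library total after TMM scaling, and the 10 genes had 597 to 7670 estimated counts per library. The marker sums that follow are in CPM without TMM scaling, over the library's total of matched counts. The TMM factors ran from 0.9298 (KO DHT+ENZ replicate 2) to 1.084 (WT DMSO replicate 1), so these sums are not on the scale of the gene levels. The summed level of 12 neural progenitor markers was 6989 to 8201 CPM in KO DHT+ENZ, 7462 to 8526 CPM in KO DHT, 7248 to 8395 CPM in KO DMSO and 7244 to 9081 CPM in WT DMSO cultures, and no marker of this list was called in any comparison. Summed over 10 neuron markers it was 991 to 1439, 983.1 to 1417, 880.6 to 1302 and 830.5 to 1352 CPM in the same order of groups. Of these 10, 7 passed the filter, and Neurod6 and Stmn2 were under 1 CPM in every library. Over 6 oligodendrocyte precursor markers it was 1808 to 2344, 1748 to 2290, 1920 to 2492 and 1849 to 2217 CPM (Mbp and Sox10 under 1 CPM in every library). Over 6 astrocyte markers it was 259.6 to 421.4, 268.6 to 419.7, 252.1 to 430.7 and 204.7 to 371.6 CPM (Aqp4 under 1 CPM in every library). Over 7 microglia and macrophage markers it did not exceed 8.2 CPM in any library. Chd1 RNA was 68.2 ± 5.73 CPM in KO DHT+ENZ, 72.0 ± 3.87 CPM in KO DHT, 67.3 ± 2.68 CPM in KO DMSO and 66.7 ± 5.73 CPM in WT DMSO cultures (SD, n = 4 each). The RNA of the targeted gene was not called different in the cultures labelled knockout (KO DMSO over WT DMSO: log2 fold change 0.01, SE 0.08, edgeR adjusted p = 0.9998). The files do not show whether the gene was edited, so knockout (KO) is the label of these cultures throughout.

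All 10 genes had their lowest group mean in the KO DHT+ENZ cultures, both in CPM and per transcript length in TPM, the length-corrected abundance in the files. Together they held 763.8, 773.1, 855.4 and 724.7 CPM in KO DHT+ENZ replicates 1 to 4, and 1120, 1090, 1231 and 1035 CPM in KO DHT replicates 1 to 4. In KO DMSO replicates the sum was 1124, 1042, 1216 and 1125 CPM, and in WT DMSO replicates it was 932.7, 1145, 1193 and 1100 CPM. The 4 KO DHT+ENZ libraries therefore lay below all 12 others, and the other 3 groups overlapped one another. WT DMSO replicate 1, the shallowest library, was the lowest of these 12. The summed level averaged 779 ± 55.0 CPM in KO DHT+ENZ, 1119 ± 82.7 CPM in KO DHT, 1127 ± 71.1 CPM in KO DMSO and 1093 ± 113 CPM in WT DMSO (SD, n = 4 each). These are bulk samples, in which fewer dividing cells and less of these RNAs per dividing cell cannot be told apart.

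**Figure D1:**
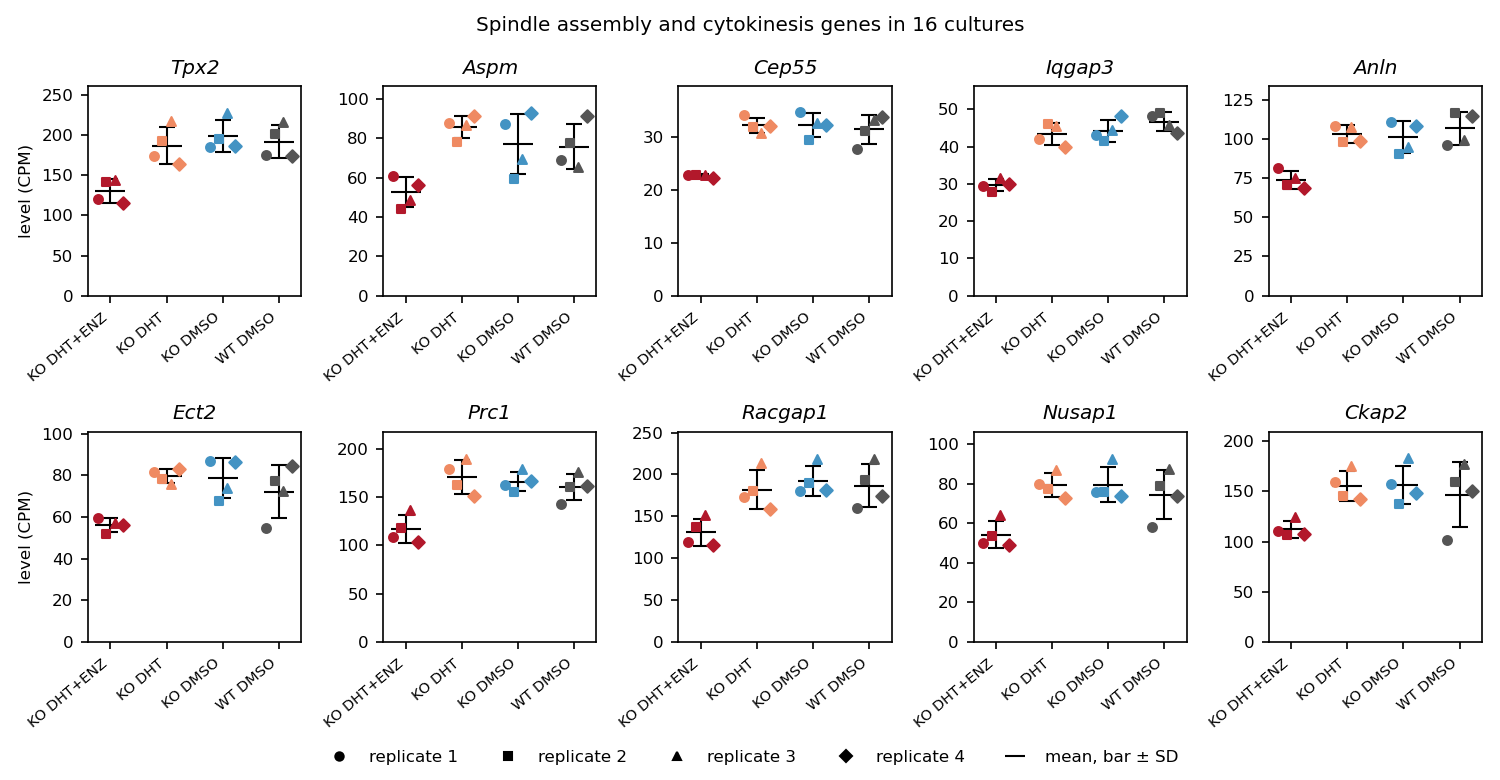
Level of each of the 10 genes (CPM after TMM scaling, linear axis from 0) in the 16 cultures. Points are replicates 1 to 4, and bars are the mean ± SD of 4. The KO DHT+ENZ points lie below all KO DHT points in every panel, while the KO DHT, KO DMSO and WT DMSO points overlap.

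The promoters of the 10 genes were read for the motifs of cell cycle genes, as a description. Whether these motifs bear on the lower levels in KO DHT+ENZ was not tested. RefSeq (GRCm38.p6) gave 12 windows for 9 of the 10, each with 250 bases before and 50 after a transcript start; Tpx2 has no window in the table. The search on both strands covered the cell cycle genes homology region (CHR, TTTGAA), the CCAAT box (CCAAT) and an E2F-like motif (TTCCCGCC). The palindromic consensus of the androgen response element was searched as well, with exact matches counted. None of these motifs contains another. A CHR was present for 8 of the 9 genes, all but Nusap1, and in 11 of their 12 windows, against 17.9% of 32851 RefSeq promoter windows of the same length. The CCAAT box was present for Aspm, Ect2, Prc1, Racgap1 and Ckap2, 5 of 9, and in 7 of the 12 windows, against 37.4% of all windows. Both stood together in the windows of the same 5 genes, 7 of the 12 windows, against 6.95% of all. The windows of Cep55, Ect2 and Prc1 come in overlapping pairs, so the same sites are counted in both windows of a pair. The shares over all are per window, and none was taken per gene. The E2F-like motif (2.19% of all windows) and the androgen response element (3 of all windows, 0.00913%) were in none of the 12. In Racgap1 the CHR spans bases 6 to 11 after the start with a CCAAT box at −12 to −8 on the other strand. In Prc1 it spans −5 to 1, with the CCAAT box at −37 to −33. Iqgap3 has a CHR at −19 to −14, on the other strand, where it reads TTCAAA, and no CCAAT box. Its paralog Iqgap1 has a single CCAAT box at −232 to −228, and no CHR, and Iqgap2 has neither. Ckap2l, the paralog of Ckap2, has 2 CHR and 3 CCAAT matches. The 4 windows below show a gene with a motif on each side of its start, a gene with the CCAAT box upstream and the CHR across its start, a gene with the CHR alone, and that gene's paralog without it. All are 5′ to 3′ on the gene's strand, with CHR and CCAAT matches of either strand in capitals. They lie at chr15:99651607-99651906 (Racgap1, minus strand), chr7:80294201-80294500 (Prc1, plus strand, the first of its 2 starts), chr3:88081801-88082100 (Iqgap3, plus strand) and chr7:80803282-80803581 (Iqgap1, minus strand).
Racgap1: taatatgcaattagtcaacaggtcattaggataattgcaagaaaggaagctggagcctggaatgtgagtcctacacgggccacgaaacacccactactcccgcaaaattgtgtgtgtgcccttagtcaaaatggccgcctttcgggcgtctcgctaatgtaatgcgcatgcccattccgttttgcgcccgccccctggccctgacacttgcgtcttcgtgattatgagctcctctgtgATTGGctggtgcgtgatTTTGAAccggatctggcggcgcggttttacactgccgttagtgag
Prc1: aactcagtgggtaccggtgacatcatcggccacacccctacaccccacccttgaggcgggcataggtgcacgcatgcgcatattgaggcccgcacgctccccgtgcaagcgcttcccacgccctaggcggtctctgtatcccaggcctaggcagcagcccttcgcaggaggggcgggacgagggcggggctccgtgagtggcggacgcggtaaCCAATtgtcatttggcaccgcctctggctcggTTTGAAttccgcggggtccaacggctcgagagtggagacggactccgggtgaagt
Iqgap3: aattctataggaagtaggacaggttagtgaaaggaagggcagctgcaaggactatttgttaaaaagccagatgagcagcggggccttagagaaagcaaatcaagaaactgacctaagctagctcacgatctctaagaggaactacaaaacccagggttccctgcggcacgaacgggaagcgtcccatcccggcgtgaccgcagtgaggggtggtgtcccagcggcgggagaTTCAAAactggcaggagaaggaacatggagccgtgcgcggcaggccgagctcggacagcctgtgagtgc
Iqgap1: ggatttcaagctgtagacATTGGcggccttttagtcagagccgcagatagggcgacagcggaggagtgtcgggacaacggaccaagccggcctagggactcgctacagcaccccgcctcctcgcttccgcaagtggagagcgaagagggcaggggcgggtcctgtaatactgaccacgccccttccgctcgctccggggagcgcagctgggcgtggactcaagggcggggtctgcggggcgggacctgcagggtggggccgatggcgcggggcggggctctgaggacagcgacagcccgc

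**Figure D2:**
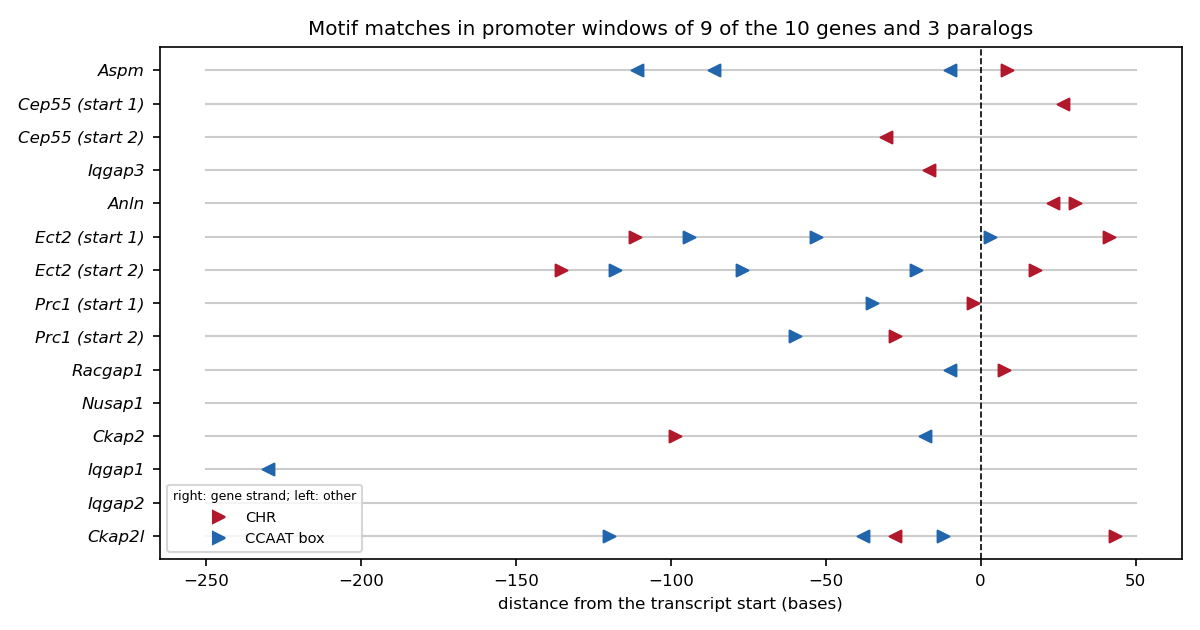
Positions of CHR (red) and CCAAT box (blue) matches in the promoter windows of 9 of the 10 genes and of 3 paralogs, by distance from the transcript start in bases. Triangles pointing right are on the gene's strand. For 7 of the 8 genes with a CHR, all but Ckap2, a match lies within 50 bases of a start, and Nusap1 and Iqgap2 have no mark.

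Among the spindle genes, Tpx2 activates the kinase Aurora A and helps microtubules form around the chromosomes. Its level was 120.5, 141, 144 and 115 CPM in KO DHT+ENZ replicates 1 to 4, against 174, 192, 217 and 164 CPM in KO DHT. It was 185, 195, 227 and 187 CPM in KO DMSO and 175, 201, 216 and 173 CPM in WT DMSO cultures. The KO DHT+ENZ libraries thus lay below all others, and in each of the 4 groups replicates 2 and 3 were above replicates 1 and 4. The log2 fold change of KO DHT+ENZ was −0.52 (SE 0.11) over KO DHT and −0.61 (SE 0.11) over KO DMSO. Aspm protein sits at the spindle poles. It stood at 60.9, 44.0, 48.5 and 56.5 CPM in KO DHT+ENZ and 87.7, 77.9, 86.7 and 91.2 CPM in KO DHT cultures. In KO DMSO it was at 87.05, 59.5, 69.4 and 92.75 CPM and in WT DMSO at 69.0, 77.4, 65.6 and 91.1 CPM. The highest KO DHT+ENZ library, replicate 1, was above the lowest KO DMSO library, replicate 2, so these groups overlapped for Aspm. Its log2 fold change over KO DHT was −0.71 (SE 0.14), the lowest among the 10, and over KO DMSO it was −0.56 (SE 0.14).

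Nusap1, which binds and bundles spindle microtubules, was at 49.9, 53.6, 64.1 and 49.1 CPM in KO DHT+ENZ and 79.8, 77.4, 87.3 and 72.8 CPM in KO DHT cultures. It was at 76.0, 75.9, 92.7 and 74.0 CPM in KO DMSO and 58.0, 78.8, 87.7 and 73.8 CPM in WT DMSO. Replicate 3 was the highest in every group, and WT DMSO replicate 1 fell inside the KO DHT+ENZ range. Ckap2, another microtubule-binding protein of the spindle, had 110.5, 107, 124 and 107 CPM in KO DHT+ENZ, against 159, 145, 176 and 142 CPM in KO DHT. It had 157, 138, 183 and 148 CPM in KO DMSO and 101, 159, 177 and 150.1 CPM in WT DMSO. Its WT DMSO replicate 1 lay below every other library of the series, and its remaining WT libraries lay above every KO DHT+ENZ library. The log2 fold change of KO DHT+ENZ over KO DHT was −0.55 (SE 0.12) for Nusap1 and −0.47 (SE 0.14) for Ckap2, and over KO DMSO it was −0.56 (SE 0.12) and −0.48 (SE 0.14) for the same genes. The span of Nusap1 overlaps that of Oip5 on the other strand, and the span of Prc1 overlaps that of Rccd1. Reads from any exonic stretch they share cannot be told apart without strand information, and shared exons were not examined.

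Of the central spindle genes, Prc1 cross-links the antiparallel microtubules. Its level was 109, 118, 137 and 104 CPM in KO DHT+ENZ and 179.9, 162.5, 190.4 and 152 CPM in KO DHT. It was 163, 156, 179.8 and 167 CPM in KO DMSO and 143, 161, 176 and 161.5 CPM in WT DMSO. The highest KO DHT+ENZ library was replicate 3, which stayed below the lowest of the other 12, WT DMSO replicate 1. Racgap1 forms the centralspindlin complex with the kinesin Kif23 and binds Ect2. It had 119.6, 137.5, 151 and 116 CPM in KO DHT+ENZ, against 172.5, 181, 214 and 159 CPM in KO DHT. In KO DMSO it had 179.6, 189, 218 and 181 CPM and in WT DMSO 159, 193, 219 and 174 CPM. KO DHT+ENZ was again below all others, and replicate 3 was the highest of each group. Ect2, the exchange factor that activates RhoA at the equator, was at 59.5, 51.7, 57.0 and 56.1 CPM in KO DHT+ENZ and 81.5, 78.1, 76.0 and 83.1 CPM in KO DHT. It was at 86.9, 67.65, 74.0 and 86.6 CPM in KO DMSO and 54.6, 77.2, 72.5 and 84.4 CPM in WT DMSO. WT DMSO replicate 1 lay inside the KO DHT+ENZ range for Ect2, as for Nusap1. Over KO DHT the log2 fold change was −0.55 (SE 0.10) for Prc1, −0.47 (SE 0.12) for Racgap1 and −0.51 (SE 0.12) for Ect2. Over KO DMSO it was −0.51 (SE 0.10) for Prc1, −0.55 (SE 0.12) for Racgap1 and −0.49 (SE 0.12) for Ect2.

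Anln encodes anillin, the scaffold that ties RhoA, actin, myosin and septins together in the ring. It was at 81.2, 70.3, 75.2 and 68.5 CPM in KO DHT+ENZ and 108, 97.9, 107.5 and 98.7 CPM in KO DHT. It was at 111, 90.5, 94.7 and 108 CPM in KO DMSO and 96.2, 116, 99.5 and 115 CPM in WT DMSO. The KO DHT+ENZ libraries lay below the other 12, with replicate 1 the highest of them. Cep55, which brings the ESCRT machinery to the midbody, had 22.95, 22.8, 22.8 and 22.4 CPM in KO DHT+ENZ, against 34.2, 32, 30.85 and 32.1 CPM in KO DHT. It had 34.85, 29.5, 32.7 and 32.3 CPM in KO DMSO and 27.7, 31.2, 33.3 and 33.85 CPM in WT DMSO. Its 4 KO DHT+ENZ libraries differed by less than 1 CPM (coefficient of variation 1.08%), and none of the other 12 came near them. Iqgap3, a scaffold for the GTPases Rac1 and Cdc42 that is made mainly in dividing cells, was at 29.55, 27.7, 31.6 and 29.9 CPM in KO DHT+ENZ and 42.2, 46.1, 45.6 and 39.97 CPM in KO DHT. It was at 43.0, 41.4, 44.4 and 48.3 CPM in KO DMSO and 48.2, 49.1, 45.8 and 43.6 CPM in WT DMSO. It was also below the other 12 in KO DHT+ENZ. The log2 fold change over KO DHT was −0.48 (SE 0.09) for Anln, −0.51 (SE 0.08) for Cep55 and −0.55 (SE 0.08) for Iqgap3. Over KO DMSO it was −0.45 (SE 0.09) for Anln, −0.51 (SE 0.08) for Cep55 and −0.58 (SE 0.08) for Iqgap3.

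The first comparison asks what adding enzalutamide to DHT changes in knockout cells. Whether a change comes from blocking the androgen receptor or from another effect of the drug was not tested. No culture had enzalutamide alone. The KO DHT+ENZ over KO DHT log2 fold changes of the 10 genes ran from −0.71 (Aspm) to −0.47 (Racgap1), with a median of −0.51, a level 30.0% lower, while the median over all genes tested was near 0. All 10 were lower in 4 of 4 same-numbered pairs (14.2% of all genes tested were), and in all 10 the 4 KO DHT+ENZ libraries were below the 4 KO DHT libraries (2.97% of all). The 40 differences within pairs, 10 genes by 4 pairs, were all negative, between −0.84 and −0.39, and their mean over the genes was −0.55, −0.54, −0.52 and −0.52 in pairs 1 to 4. At an adjusted p under 0.05 in edgeR's quasi-likelihood test, 5 of the 10 were called lower: Aspm, Cep55, Iqgap3, Anln and Prc1 (0.189% of all genes were called lower). With the replicate number as a block, all 10 were called lower (1.92% of all). This contrast chose the genes, so these counts describe the choice and are no test of it. Leaving out any library but KO DMSO replicate 2 or WT DMSO replicates 3 and 4 moved the first count, to 0 at the lowest without KO DHT+ENZ replicate 2 and 9 at the highest without WT DMSO replicate 1. All 10 stayed lower whichever of the 16 libraries was left out, which is likewise no test.

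Against KO DMSO, the vehicle cultures, the 10 genes were also lower in KO DHT+ENZ, with log2 fold changes from −0.61 (Tpx2) to −0.45 (Anln) and a median of −0.53. This comparison shares its KO DHT+ENZ libraries with the one before, and earlier results of it were known when the genes were listed. All 10 were lower in 4 of 4 pairs (15.6% of all genes tested), and the libraries did not overlap in 9 of 10 (3.18% of all), Aspm being the exception. The mean over the genes was −0.56, −0.43, −0.49 and −0.63 in pairs 1 to 4. Tpx2, Cep55, Iqgap3 and Prc1, 4 of the 10, were called lower (0.2% of all genes), and all 10 were with the replicate block (2.09% of all). The first count was 0 without KO DHT+ENZ replicate 1, 2 or 4 or KO DMSO replicate 1, 3 or 4, was 1 or 2 without KO DHT replicate 1 or 2, KO DMSO replicate 2 or WT DMSO replicate 2, and was 9 without WT DMSO replicate 1. A fit of these 8 libraries alone called 0 genes.

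DHT alone against vehicle in knockout cells shares its KO DMSO libraries with the comparison before and gave no call for any of the 10, nor for any other gene (0% called, and 0 genes by DESeq2). In edgeR, 193 genes had an unadjusted p under 0.05, and 1358 did with the replicate block, which also called 0 genes. The log2 fold changes of the 10 lay between −0.09 (Tpx2) and 0.15 (Aspm) with a median of −0.00, and every edgeR adjusted p was 0.9998 (0.675 at the lowest with the replicate block). Tpx2 and Racgap1 were below their KO DMSO levels in all 4 KO DHT libraries, pair by pair, by 0.03 to 0.19 on the log2 scale, as 13.2% of all genes tested were. Aspm differed by 0.01, 0.39, 0.32 and −0.02 in pairs 1 to 4, and its groups overlapped.

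The comparison of the cultures labelled knockout with those labelled wild type, both in DMSO, again uses the KO DMSO libraries. In it 0 of the 10 and 0 of all genes were called (0%, and 0 genes by DESeq2). In edgeR, 508 genes had an unadjusted p under 0.05, and 1329 did with the replicate block, which also called 0 genes. For the 10 genes the KO DMSO over WT DMSO changes on the log2 scale lay between −0.08 (Iqgap3 and Anln) and 0.13 (Ect2), with a median of 0.05 and an edgeR adjusted p of 0.9998 for each. No gene of the 10 kept its sign in all 4 pairs, as 6.57% of all genes did downwards and 6.24% upwards. The mean over the 10 was 0.28 in pair 1, −0.16 in pair 2, 0.02 in pair 3 and 0.03 in pair 4. The value of pair 1 came with WT DMSO replicate 1, which lay below its group mean for all of the 10 but Iqgap3. There the difference was 0.67 for Ect2, 0.63 for Ckap2, 0.39 for Nusap1 and 0.34 for Aspm, and −0.16 for Iqgap3. Without that library and with the replicate block, Aspm, Cep55, Ect2 and Ckap2 turned slightly negative, between −0.07 and −0.02.

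**Figure D3:**
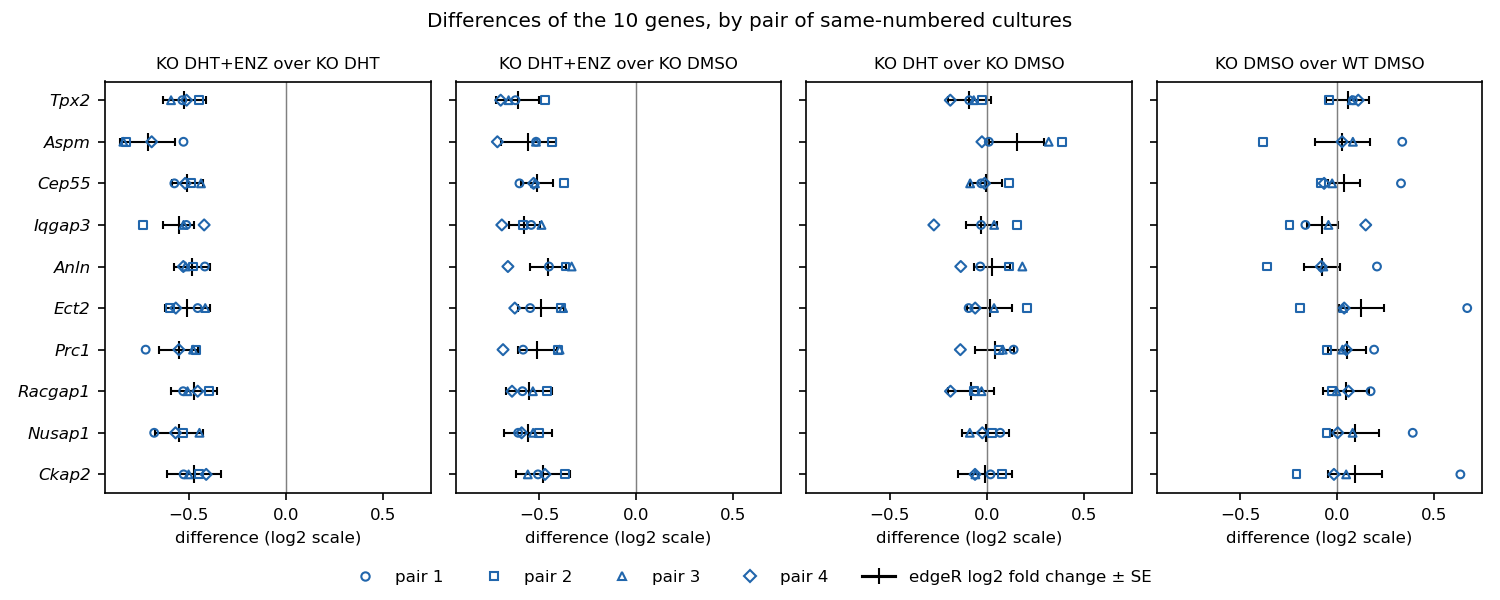
Differences of the 10 genes on the log2 scale in the 4 comparisons. Open symbols are same-numbered pairs 1 to 4, and black ticks with bars are the edgeR log2 fold change ± SE. In the 2 panels on the left, all symbols lie left of 0, between −0.84 and −0.33, and in the 2 on the right they lie on both sides of 0.

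The 10 genes differed in what else moved them. Of the variance of log2 CPM over the 16 libraries, the group held 92.2% for Iqgap3 and 88.8% for Cep55 but 52.1% for Ckap2, and the replicate number held 0.63% for Iqgap3 and 28.7% for Racgap1. Over the 9747 genes of at least 10 CPM, the median was 17.4% for the group and 46.4% for the replicate number. The 10 genes were selected on differences between these groups, so a group share above that median follows from the choice. Averaged over the groups, replicate 3 stood above its group mean by 0.22 on the log2 scale for Racgap1, Nusap1 and Ckap2 and by 0.19 for Tpx2, while for Aspm it stood at −0.10 and replicate 4 at 0.19. Across the 16 libraries the pairwise correlation of the genes' log2 CPM had a median of 0.82, from 0.48 for Aspm with Racgap1 to 0.99 for Tpx2 with Racgap1. With each group's mean taken out, the median was 0.28, Tpx2 and Racgap1 kept 0.97, and Aspm with Tpx2 was at −0.56. Prc1, Racgap1, Nusap1, Ckap2 and Tpx2 correlated at 0.63 or more with one another in these deviations. Aspm, Anln and Ect2 correlated at 0.74 or more with one another, and both sets were picked out after the values were seen. These correlations are descriptions over 16 libraries that share replicate, depth and library preparation.

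Transcript length was compared over all genes of at least 10 CPM. Over these 9747 genes, pair differences of KO DHT+ENZ over KO DHT had rank correlations with transcript length of 0.20, −0.59, −0.30 and −0.35 for replicate numbers 1 to 4. Over KO DMSO these were 0.30, −0.09, 0.17 and 0.05. Aspm has the longest transcripts of the 10 (mean effective length 8894 bases), while the others span 1773 bases (Cep55) to 4682 bases (Iqgap3). With a trend on length removed and the replicate block in the fit, the KO DHT+ENZ over KO DHT log2 fold change was −0.62 for Aspm and between −0.56 and −0.47 for the other 9, and all 10 were called. With transcript length as an offset in the fit, 1 of the 10 was called, with log2 fold changes between −0.61 and −0.42. Under the same trend correction, Aspm in KO DHT over KO DMSO was at −0.01.

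**Figure D4:**
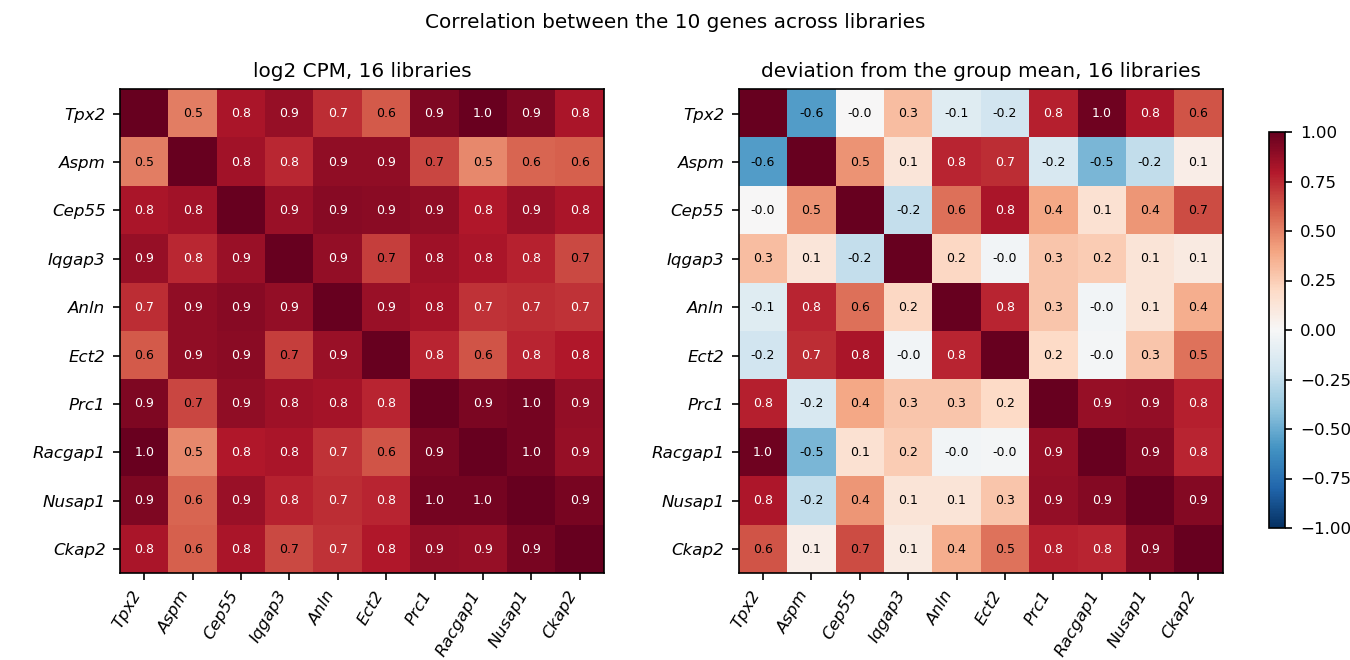
Pearson's r between the 10 genes over 16 libraries, for log2 CPM on the left and for deviations from the group means on the right. On the left all values are positive (0.48 to 0.99), and on the right a block of Prc1, Racgap1, Nusap1, Ckap2 and Tpx2 stays red while Aspm with Tpx2 is at −0.56.

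The proteins these genes work with were read in the same fit of KO DHT+ENZ over KO DHT, from lists written with earlier results known. Of 38 partners in spindle assembly, 32 had a negative log2 fold change, and the list's median was −0.28. Called lower were 3 (Kif11, Kif15 and Spag5), and 16 with the replicate block (0.189% and 1.92% of all genes tested). In either fit 0 were called higher. Aurka, the Aurora A kinase that Tpx2 activates, was at 40.4 ± 7.20 CPM in KO DHT+ENZ cultures and 57.2 ± 12.8 CPM in KO DHT cultures (SD, n = 4 each), with a log2 fold change of −0.50 (SE 0.16). It was called with the block alone. Kif11, the motor that pushes spindle poles apart, was at 92.55 ± 4.64 CPM in KO DHT+ENZ cultures and 137 ± 5.27 CPM in KO DHT cultures, at −0.57 (SE 0.11). Hmmr, a spindle pole protein that helps place Tpx2, was at −0.52 (SE 0.12) and was called with the block. Numa1, which anchors microtubules at the poles, was at −0.27 (SE 0.13) and was called with the block, while Wdr62, a pole protein also mutated in microcephaly, was at −0.35 (SE 0.17) with no call. Katna1, a subunit of the microtubule-severing enzyme katanin, which acts with Aspm, was at 0.14 (SE 0.11), with no call in either fit.

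All 13 partners in the central spindle had a negative log2 fold change, with a median of −0.45. Called lower were 3 (Kif4, Kif20b and Kif14), and 10 with the block (0.189% and 1.92% of all genes tested), and 0 were called higher. Kif23, the motor subunit of centralspindlin, was at 52.85 ± 5.15 CPM in KO DHT+ENZ cultures and 70.0 ± 4.03 CPM in KO DHT cultures, a log2 fold change of −0.40 (SE 0.08). Kif4, the kinesin that Prc1 takes to the midzone, was at 45.1 ± 3.38 CPM in KO DHT+ENZ cultures and 68.1 ± 8.68 CPM in KO DHT cultures, at −0.60 (SE 0.11). Kif20a, a midzone kinesin, was at −0.50 (SE 0.12). Of the chromosomal passenger complex, the kinase Aurkb was at −0.40 (SE 0.17) and its scaffold Incenp at −0.52 (SE 0.13). Plk1, the kinase that primes Racgap1 to bind Ect2, was at −0.45 (SE 0.16), and Cit, the citron kinase of the midbody, which was counted among the spindle assembly partners, at −0.57 (SE 0.15). Kif23, Kif20a, Aurkb, Incenp, Plk1 and Cit were called with the block only.

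Counts among the genes of the ring and the final cut were near the share over all genes, of which 0.189% were called lower and 0.0766% higher, and 1.92% lower and 1.57% higher with the block. Of 26 contractile ring genes, 0 were called in either direction in either fit, with a median of 0.04. Of 19 abscission genes 0 were called, with a median of 0.09 (1, Chmp7, was called higher with the block, at 0.22 (SE 0.10)). Rhoa itself was at 427 ± 49.45 CPM in KO DHT+ENZ cultures and 416 ± 15.2 CPM in KO DHT cultures, a log2 fold change of 0.04 (SE 0.10). The non-muscle myosins Myh9 and Myh10 were at −0.02 (SE 0.12) and −0.22 (SE 0.12), and the septins Sept2, Sept7 and Sept9, filament proteins that Anln binds, at −0.07 (SE 0.20), −0.04 (SE 0.15) and 0.06 (SE 0.12). Pdcd6ip and Tsg101, which Cep55 brings to the midbody, were at 0.10 (SE 0.10) and 0.09 (SE 0.14), and the ESCRT-III subunit Chmp4b was at 0.09 (SE 0.10). These genes serve interphase cells too, in the cytoskeleton and in membrane traffic. Of 30 genes of G1/S and DNA replication, 1 fell (Pola1, a DNA polymerase subunit, at −0.40 (SE 0.08)) and 16 did with the block, 0 rose, and the median was −0.31.

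Over KO DMSO, with the same KO DHT+ENZ libraries, 4 of the 38 spindle assembly partners were called lower (Kif15, Kifc1, Spag5 and Knstrn). Of the 13 central spindle partners, 4 were called lower (Kif23, Kif4, Kif20a and Kif14). With the block these counts were 14 and 10. Of all genes tested, 0.2% were called lower, and 2.09% with the block. Log2 fold changes were negative for 37 of the 38 and 11 of the 13, with medians of −0.24 and −0.53. In the contractile ring and abscission lists 0 were called in either fit, with medians of −0.02 and 0.02. All 30 G1/S genes had a negative log2 fold change, with a median of −0.42. Of these, 0 were called, and 23 were called lower with the block. In KO DHT over KO DMSO and KO DMSO over WT DMSO, 0 genes of any of these lists were called, with or without the block.

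**Figure D5:**
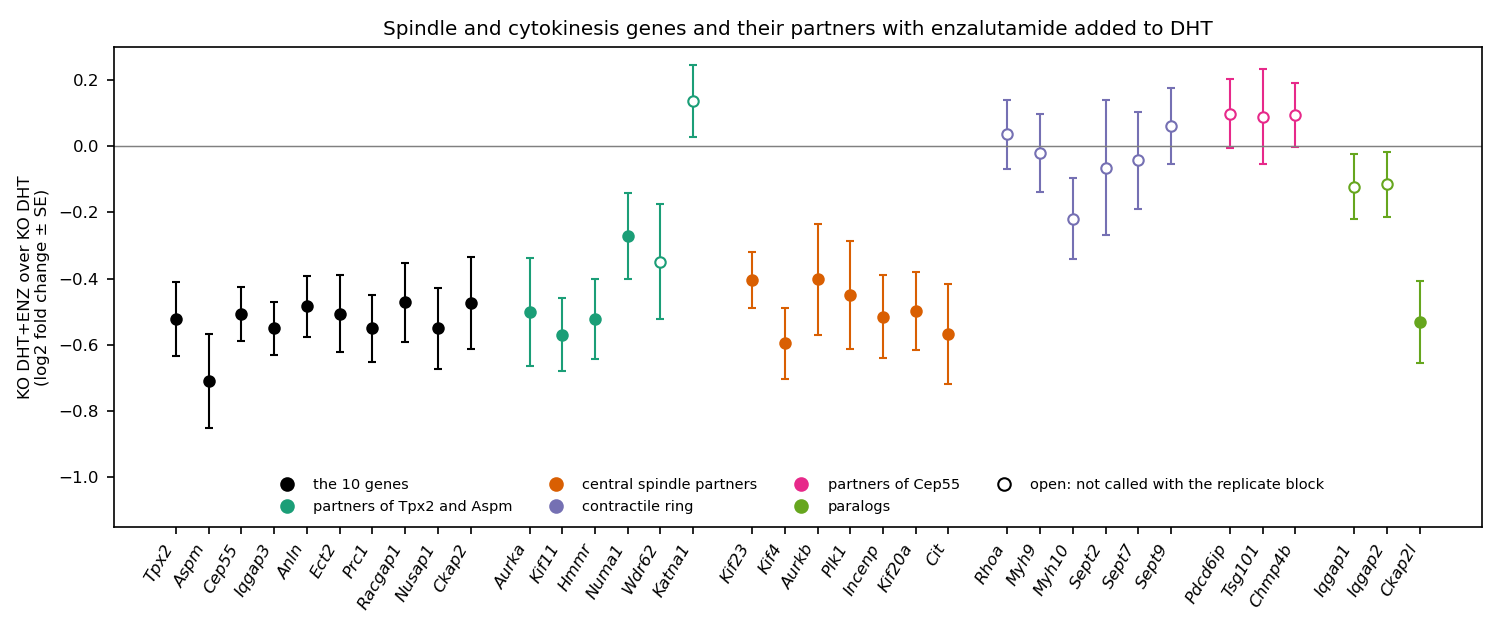
Log2 fold change ± SE of KO DHT+ENZ over KO DHT in edgeR for the 10 genes (black) and for partners named by role. Filled points were called with the replicate block at an adjusted p under 0.05. Partners of the spindle and central spindle reach −0.60 (Kif4), and contractile ring and Cep55 partners lie between −0.22 (Myh10) and 0.10 (Pdcd6ip).

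Paralogs give a comparison within a family. Per length, Iqgap3 stood at 8.58 ± 1.06 TPM in KO DHT+ENZ, 12.3 ± 0.515 in KO DHT, 12.5 ± 0.994 in KO DMSO and 13.2 ± 0.415 TPM in WT DMSO cultures (SD, n = 4 each). Iqgap1, the broadly expressed scaffold of the family, stood at 16.1 ± 3.85, 18.51 ± 2.57, 17.3 ± 3.06 and 18.4 ± 2.57 TPM in the same order, and Iqgap2 at 21.0 ± 1.02, 24.4 ± 2.78, 22.7 ± 1.79 and 22.8 ± 3.12 TPM. The log2 fold change of KO DHT+ENZ over KO DHT was −0.12 (SE 0.10) for Iqgap1 and −0.12 (SE 0.10) for Iqgap2, with no call, beside −0.55 (SE 0.08) for Iqgap3. The difference between the paralogs' changes was not tested. Ckap2 had 71.4 ± 5.30 TPM in KO DHT+ENZ, 106 ± 9.38 in KO DHT, 103 ± 11.7 in KO DMSO and 95.4 ± 18.2 TPM in WT DMSO, and Ckap2l, a spindle protein of progenitors, had 25.3 ± 1.20, 39.2 ± 2.12, 39.3 ± 3.67 and 36.2 ± 6.99 TPM in the same order. Ckap2l was called with the block, at −0.53 (SE 0.12). Over all 16 libraries the mean level of the 10 genes per length ran from 99.2 TPM for Racgap1, 93.8 for Ckap2, 88.7 for Prc1 and 69.0 for Tpx2 through 40.4 for Anln, 34.5 for Nusap1, 33.8 for Ect2 and 22.5 for Cep55 to 11.7 for Iqgap3 and 11 TPM for Aspm.

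At the level of transcripts, a single isoform held most of the estimated counts of Anln (95.8%), Ckap2 (96.1%) and Aspm (96.4%), the last being the 9867-base coding transcript. Prc1 was spread over 3 coding isoforms with 41.5, 27.9 and 24.1% of its counts. Of 35 isoforms of the 10 genes with at least 1% of their gene's counts, 1 had KO DHT+ENZ shares that did not overlap the KO DHT shares, which is 2.86%. Over 27842 isoforms of all genes with a mean of at least 300 counts it was 2.14%, so this count is near the background. The 1 isoform is of Iqgap3 and was picked out after its values were seen, with no test. The 3263-base coding transcript Iqgap3-204 held 22.4, 24.6, 16.4 and 24.5% of its counts in KO DHT+ENZ, against 13.2, 3.83, 8.97 and 15.3% in KO DHT. It held 12.8, 19.2, 27.2 and 5.83% in KO DMSO and 8.13, 13.0, 32.3 and 13.8% in WT DMSO. The KO DHT+ENZ shares of Iqgap3-204 were above all its KO DHT shares and overlapped those of the DMSO groups, and kallisto's split between isoforms that share exons was not checked against junction reads. The full-length Iqgap3-201 (5756 bases) held 72.3, 73.4, 79.8 and 69.3% in KO DHT+ENZ and 81.9, 92.0, 88.6 and 79.6% in KO DHT. For Ect2, the retained-intron transcript Ect2-201 held 32.8% of the counts in WT DMSO replicate 1 and at most 7.97% in the other 15 libraries, and the coding transcript Ect2-207 was listed at 0 in that library.

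The genes most like the mean pattern of the 10, by Pearson correlation of log2 CPM over the 16 libraries among genes of at least 10 CPM, were Top2a (0.971), Zwilch (0.955), Kif4 (0.954), Kif15 (0.953) and Prr11 (0.952). Top2a, which encodes the topoisomerase that untangles sister chromatids, was at 354.9 ± 31.4 CPM in KO DHT+ENZ, 551.6 ± 55.7 CPM in KO DHT, 517.8 ± 35.6 CPM in KO DMSO and 491.7 ± 42.5 CPM in WT DMSO (SD, n = 4 each). Zwilch encodes a kinetochore protein, and Kif4 and Kif15 encode mitotic kinesins. With group means taken out, Top2a still ranked 1, Prr11 3, Kif15 5, Zwilch 7 and Kif4 96 of the genes compared. Without WT DMSO replicate 1, the first 5 in alphabetical order were Gen1, Hmmr, Ncapd2, Prr11 and Ttk.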

How the data were processed

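Polyadenylated RNA was measured in 16 cultures, with paired reads sought at 30 M per library per the labels' protocols. The submitters' processing notes name kallisto and GRCm39, with no versions. Per the file headers, each deposited file lists 146190 transcripts with length, effective length, estimated counts and TPM. The estimated (expected) counts, as deposited, are not scaled between libraries. Deposited TPM values served for levels per length and transcript shares, with no test. Lengths weighted by TPM gave the length checks. Of the transcripts, 135007 matched GENCODE M21 by identifier, holding 98.85% to 99.12% of each library's counts. That annotation is of another build and gave gene names, the grouping of transcripts into genes, transcript types and gene spans. Promoter windows came from RefSeq (GRCm38.p6). Reads shared between near-identical genes or isoforms were divided by kallisto's model.

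Gene sums of the estimated counts were rounded to whole numbers for edgeR 4.0.16 (R 4.3.3): TMM, filterByExpr, 1 quasi-likelihood model of 4 groups over 16 libraries, and Benjamini-Hochberg adjustment over 16971 genes. A gene was called at an adjusted p under 0.05. SE is the size of the log2 fold change over the square root of F. The fit was tested on simulated data with 200 changed genes. Alternatives used DESeq2 1.42.0, limma 3.58.1, other scaling and filters, length corrections, the replicate block and leaving out each library. Same-numbered libraries were treated as pairs in the block, on a check of their deviations from group means. These correlated at 0.16 to 0.79 in every compared pair, over the minimum of 0.1. The block also joins libraries of groups that were not compared. There WT DMSO replicate 1 missed the minimum, since r was 0.08 for KO DHT+ENZ and −0.01 for KO DHT. The higher replicate numbers gave 0.24 to 0.68. The pairing comes from the replicate numbers of the labels and this check, not from a stated batch, and 10 of 16 libraries were closest to their own number. The common biological coefficient of variation was 0.212, and 0.122 with the block. The labels state biological replicates from 2 litters without assigning them.

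The 10 genes, the partner lists and the named partners were chosen with earlier results of these data known. Named genes were the 10, Chd1, partners listed by role (some are not reported here), and the 5 genes outside the 10 most correlated with their mean pattern among genes of at least 10 CPM. Spag5, Kif20b, Kif14, Kifc1, Knstrn, Pola1 and Chmp7 were named for their calls, after their values were seen.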

Additional observations from a re-analysis of the deposited data

Results flagged for a closer look

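Of 40 groups of 4 libraries examined, 10 genes by 4 groups, 1 held a library far from the others: Nusap1 in KO DMSO replicate 3, at 92.7 CPM, was the highest of its group, whose other libraries were at 74.0 to 76.0 CPM. The same replicate number was the highest for Nusap1 in the other 3 groups, at 64.1 CPM in KO DHT+ENZ, 87.3 CPM in KO DHT and 87.7 CPM in WT DMSO. The criterion marks about 1 in 20 such groups by chance.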

How the results depend on the processing

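In all 26 alternatives of each comparison, the 10 genes stayed lower in KO DHT+ENZ: 260 of 260 values over KO DHT were negative (−0.79 to −0.38), and 260 of 260 over KO DMSO (−0.66 to −0.40). The genes were listed with earlier results of both comparisons known, and the alternatives refit the same libraries. These signs are therefore a description and no test. The number of calls did depend on the processing. Over KO DHT, 45 genes and 5 of the 10 were called. This was 17 and 2 with no filter, 211 and 9 with DESeq2, 591 and 10 with the replicate block, 1031 and 10 with DESeq2 and the block, 407 and 10 with limma-voom and the block, 12 and 1 with a transcript length offset, 607 and 10 with a length trend and the block, and 1480 and 10 with the block and without WT DMSO replicate 1. Over KO DMSO, 43 genes and 4 of the 10 were called. In the same order of settings this was 9 and 1, 180 and 9, 499 and 10, 820 and 10, 344 and 10, 10 and 2, 605 and 10, and 1247 and 10, and it was 0 and 0 in a fit of the 2 groups alone. Leaving out each library in turn gave 2 to 116 genes and 0 to 9 of the 10 over KO DHT, and 0 to 98 genes and 0 to 9 of the 10 over KO DMSO. KO DMSO over WT DMSO had 9 genes called with DESeq2 and the block, 1 with the length offset and 3 with the block and without WT DMSO replicate 1, and KO DHT over KO DMSO had 1 with the last. None of these were among the 10. With the replicate block the partner calls became 16 (spindle assembly), 10 (central spindle), 1 (abscission), 1 (paralogs) and 16 (G1/S) over KO DHT, and 14, 10, 0, 1 and 23 over KO DMSO. The block changed no call of the 10 in the other 2 comparisons. The median correlation between the 10 was 0.28 in place of 0.82 with group means removed. The cause of these differences was not tested, except that the block takes out the spread between replicate numbers and leaving out a library removes a sample.

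Signs turned for the following values, of which the furthest from 0 before the change were Aspm in KO DHT over KO DMSO (0.154) and Ect2 in KO DMSO over WT DMSO (0.125). In KO DMSO over WT DMSO with the block and without WT DMSO replicate 1, Aspm was at −0.074, Cep55 at −0.042, Ect2 at −0.017, Ckap2 at −0.056 and Chd1 at −0.03. In KO DHT over KO DMSO with the length trend and the block, Aspm was at −0.009, Cep55 at 0.052, Nusap1 at 0.004 and Ckap2 at 0.036, and with the length offset Ect2 was at −0.071. In KO DHT+ENZ over KO DHT with the length trend and the block, Myh9 was at 0.06. Leaving out 1 library gave ranges across 0 for KO DMSO over WT DMSO of −0.016 to 0.120 for Tpx2, −0.070 to 0.133 for Aspm, −0.018 to 0.079 for Cep55, −0.022 to 0.134 for Racgap1, −0.006 to 0.183 for Nusap1, −0.050 to 0.196 for Ckap2 and −0.033 to 0.060 for Chd1. For KO DHT over KO DMSO they were −0.046 to 0.026 for Cep55, −0.063 to 0.010 for Iqgap3, −0.021 to 0.069 for Anln, −0.051 to 0.058 for Ect2, −0.017 to 0.092 for Prc1, −0.057 to 0.075 for Nusap1 and −0.074 to 0.075 for Ckap2. For KO DHT+ENZ over KO DHT they were −0.025 to 0.094 for Rhoa, −0.051 to 0.011 for Myh9, −0.124 to 0.044 for Sept7 and −0.008 to 0.123 for Sept9. Depth limits the 10 genes little, since the lowest library had 597 estimated counts (Cep55 in WT DMSO replicate 1). By TPM instead of counts, the leading isoform's share in KO DHT+ENZ was lower for 8 of the 10 genes, such as 60.9% in place of 73.7% for Iqgap3-201 and 70.2% in place of 95.3% for Anln-201.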
